A study of Ovis aries with 20 samples.

Results

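The genes described here are 10 regulators of multiciliated cell fate, FOXJ1, MCIDAS, GMNC, CCNO, MYB, TP73, RFX2, RFX3, DEUP1 and FOXN4, in the trachea of fetal and newborn sheep. They were chosen by name from a list. Of the 24478 genes in the count tables, 9 carried a listed symbol, and DEUP1 was taken from the row named CCDC67, its older symbol, which makes 10. All 10 passed the filter on low counts. The study compared sheep with CF (cystic fibrosis, in which the anion channel CFTR is lost) with normal sheep (WT). Total RNA of frozen tracheal tissue was sequenced at days 65, 80, 100, 120 and 147, the last being birth. The groups were CF day 65, CF day 80, CF day 100, CF day 120 and CF day 147, and WT at the same 5 ages, with 2 libraries in each of the 10 groups and 20 libraries in all. The sources used here do not give the CF allele, the breed or the part of the trachea taken.

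Multiciliated cells line the airway and move mucus with beating cilia. In mouse and frog, a progenitor freed from Notch signalling switches on GMNC, a nuclear protein related to the replication inhibitor geminin, which in turn activates MCIDAS (multicilin), TP73 and, with them, MYB and FOXJ1. Multicilin joins E2F4 or E2F5 to drive the genes for centriole amplification, among them CCNO (cyclin O) and DEUP1, the core of the deuterosome on which new centrioles are built. FOXJ1, together with RFX2 and RFX3, then turns on the genes of the motile cilium. GMNC, MCIDAS and CCNO act for a limited time in each cell, whereas FOXJ1 and its targets stay on in the mature ciliated cell.

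Total counts per library ran from 42372433 to 87651829, and levels are given as CPM, counts per library scaled to a common size by TMM. All 24 epithelial markers were detected in all 20 libraries, with a summed level from 1755 CPM in CF day 80 replicate 1 to 8572 CPM in WT day 100 replicate 2. In 4 libraries another tissue was present, by its marker genes. The thyroid list summed to 111131 CPM in WT day 80 replicate 2, the skeletal muscle list to 43695 CPM in CF day 80 replicate 1 and the liver list to 18409 CPM in CF day 65 replicate 2. WT day 65 replicate 2 had 690 CPM of the lymphocyte and thymus list and 1236 CPM of the muscle list. The labels give no statement that replicates are separate animals, so the p-values measure the spread between these libraries, which may be technical. Both WT day 100 libraries carry 1 identifier, as do both CF day 147 libraries, and another identifier stands on WT day 65 replicate 2 and CF day 100 replicate 2. In WT day 80, WT day 120, CF day 65 and CF day 80 the 2 identifiers differ only in their last digit. The labels do not say what that digit means. In bulk tissue, fewer ciliated cells and less RNA per ciliated cell cannot be told apart.

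Transcripts of all 10 regulators were present at the earliest age and in each of the 20 libraries, the lowest being 87 counts for GMNC in WT day 147 replicate 2. Their levels differed widely. Per kilobase of summed exon length, FOXJ1 averaged 197 ± 110 CPM per kb over the 20 libraries and CCNO 31.7 ± 22.5 CPM per kb (SD). TP73, MYB and RFX2 followed at 15.0 ± 6.8, 12.6 ± 4.3 and 10.5 ± 3.5 CPM per kb. FOXN4 and MCIDAS averaged 8.75 ± 3.95 and 7.41 ± 3.92 CPM per kb, and RFX3 5.25 ± 1.62 CPM per kb. GMNC and DEUP1 were lowest, at 2.21 ± 1.37 and 1.94 ± 0.79 CPM per kb. Below CCNO, neighbours in this order differed by less than their spread over the libraries except RFX3 and GMNC, and FOXJ1 stood above the other 9 in each library group.

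**Figure D1:**
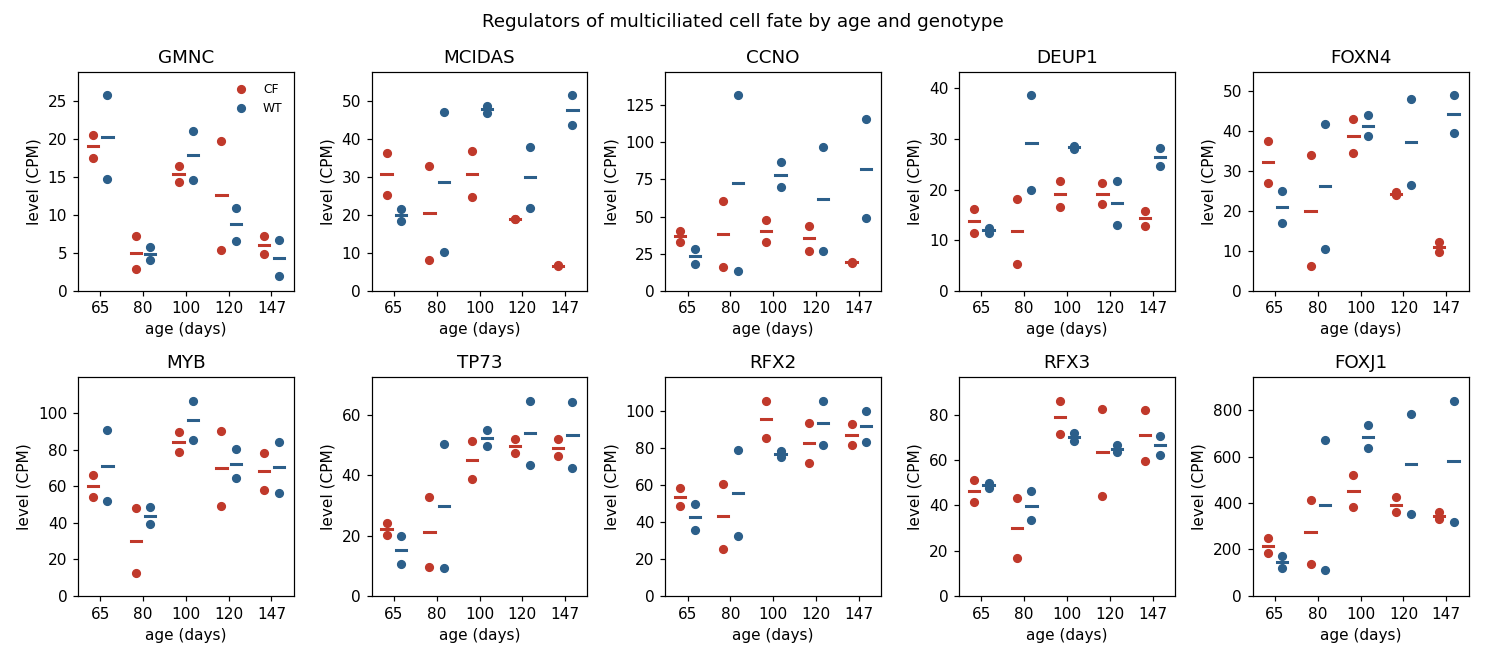
Level of each regulator in CPM (vertical axes, each with its own scale from 0) against age in days, for CF (red, left) and WT (blue, right), with 1 point per library and a bar at the mean of the 2 libraries of a group. GMNC lies between 2.84 and 7.21 CPM at day 80 and between 14.7 and 25.8 CPM at day 65, and the 2 CF libraries at birth lie below both WT libraries for MCIDAS, CCNO, DEUP1 and FOXN4.

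The order in which the regulators appear was read from the mean of the CF and WT means at each age, with onset set at the first age that reached 50% of the highest age mean. By this measure 8 of the 10 regulators had their onset at day 65, the earliest age sampled, so their order among themselves lies before it or cannot be read from these ages. These 8 were GMNC, MCIDAS, CCNO, DEUP1, FOXN4, MYB, RFX2 and RFX3. FOXJ1 reached 31.8% of its highest age mean at day 65 and 58.7% at day 80, which puts its onset at day 80. TP73 reached 36.0% at day 65, 49.1% at day 80 and 93.9% at day 100, which puts its onset at day 100. CCNO, at 50.4% on day 65, lay just inside the limit and TP73 at day 80 just outside it. With the limit at 25%, FOXJ1 and TP73 also had their onset at day 65. Without the 4 libraries that held other tissue the onset was day 80 for CCNO and for TP73, and leaving out WT day 80 replicate 1 put that of FOXJ1 at day 100.

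**Figure D2:**
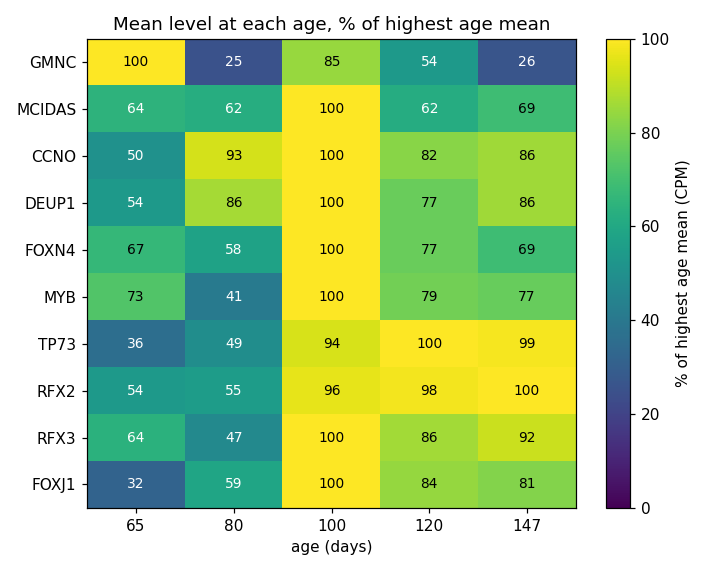
Mean level at each age (columns, days) of each regulator (rows) as a percentage of its highest age mean, where an age mean is the mean of the CF and WT group means in CPM. GMNC is at 100% at day 65 and 25% at day 80, 7 regulators peak at day 100, and TP73 and RFX2 stay above 90% from day 100 to day 147.

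Within the genotypes the onset ages were not the same, and this difference was not tested. In CF, TP73 had its onset at day 100, FOXJ1 at day 80 and the other 8 at day 65. In WT, only GMNC, MYB and RFX3 stood at or above 50% of their highest age mean at day 65, and the other 7 reached it at day 80. At day 65 the CF and WT libraries did not overlap for 5 of the 10 regulators, FOXJ1, MCIDAS, CCNO, TP73 and FOXN4, each higher in both CF libraries, against 23.8% of all tested genes. None of the 10 passed the edgeR quasi-likelihood test at that age, with 0.00995% of all genes called. None was at an unadjusted p under 0.05 (3.39% of all genes), and DESeq2 called 0. Without WT day 80 replicate 1 the WT onset was day 100 for FOXJ1, MCIDAS, CCNO, TP73, RFX2 and FOXN4 and stayed at day 80 for DEUP1. By library size alone and per epithelial RNA, the WT onset of MCIDAS, RFX2 and FOXN4 was day 65, as in CF. Without the 4 libraries that held other tissue, the CF onset was day 65 for FOXJ1 and day 80 for TP73. By library size alone the onset of TP73 was day 65 in CF and day 100 in WT. FOXJ1 stood at 670 CPM in WT day 80 replicate 1 and at 112 CPM in replicate 2, the library with thyroid RNA, and CCNO at 132 and 13.4 CPM in the same libraries.

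GMNC, the regulator that acts first in mouse and frog, had the widest range of the 10. Its levels in CF were 20.5 and 17.5 CPM at day 65, 2.84 and 7.21 at day 80, 14.4 and 16.4 at day 100, 5.41 and 19.7 at day 120 and 7.19 and 4.77 at day 147. In WT they were 25.8 and 14.7, 5.72 and 4.03, 14.6 and 21.1, 11.0 and 6.56, and 6.71 and 1.92 CPM at the same ages. All 4 day 80 libraries lay below all 4 day 65 libraries, as for 9.08% of all genes. All 4 day 100 libraries lay above those of day 80, as for 6.38% of all genes. At birth all 4 were again below those of day 65, and the share of all genes for this was not counted. GMNC was the only 1 of the 10 to pass the F test for any change over the ages (edgeR, Benjamini-Hochberg adjusted p = 0.0217, against 17.9% of all tested genes), and 5 were at an unadjusted p under 0.05 (33.6% of all genes). The F test call was not kept in all alternatives, as the last section gives. At birth GMNC was lower than at day 65 by a log2 fold change of -1.95 ± 0.48 (SE, adjusted p = 0.0146). Of the 20 fits that leave out 1 library, 17 kept this call, which was lost without WT day 65 replicate 1, WT day 147 replicate 2 or CF day 147 replicate 2 (lowest and highest adjusted p 0.00616 and 0.0743).

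From day 65 to day 80 no gene of the 20097 tested passed the edgeR test (0% called). GMNC and MYB were lower in all 4 day 80 libraries than in all 4 day 65 libraries, against 9.08% of all genes. Their log2 fold changes were -1.99 ± 0.48 and -0.85 ± 0.36, with adjusted p of 0.131 and 0.189. Of the 10, 2 were at an unadjusted p under 0.05 (23.6% of all genes) and 1, GMNC, was called by DESeq2, which called 1777 genes in all. MYB, a transcription factor of progenitors that in mouse is needed for entry into the ciliated programme, stood at 12.3 and 48.0 CPM in CF and at 39.2 and 48.5 CPM in WT at day 80. At day 65 it stood at 65.9 and 54.1 CPM in CF and at 51.9 and 90.5 CPM in WT. The value of 90.5 CPM was in the library with lymphocyte, thymus and muscle RNA, and that of 54.1 CPM in the one with liver RNA. The erythroid list ran from 23.4 to 848 CPM at CF day 65. The part of these tissues in the MYB level was not tested.

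Between day 80 and day 100, all 10 regulators had a positive log2 fold change and 3 rose, GMNC, MYB and RFX3. The median of the 10 was 0.81 on the log2 scale and that of all tested genes -0.11, and 8.92% of all genes were called, with 3.22% of all genes higher at day 100. At an unadjusted p under 0.05 there were 4 of the 10, against 25% of all genes. GMNC rose by 1.74 ± 0.48 (adjusted p = 0.0414), MYB by 1.31 ± 0.36 (adjusted p = 0.0409) and RFX3 by 1.10 ± 0.27 (adjusted p = 0.0273) in the edgeR test (quasi-likelihood, p adjusted by Benjamini-Hochberg). For these 3 genes, all 4 day 100 libraries were above all 4 day 80 libraries, against 6.38% of all genes. RFX3, a factor that binds the X-box of ciliary genes, stood at 86.2 and 71.5 CPM in CF and 68.3 and 71.8 CPM in WT at day 100. At day 80 it stood at 16.9 and 43.3 CPM in CF and at 46.3 and 33.5 CPM in WT. MYB reached 89.6 and 78.5 CPM in CF and 85.5 and 107 CPM in WT at day 100, its highest levels of the series by age mean.

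The lowest day 80 values belonged to the library with skeletal muscle RNA, CF day 80 replicate 1, for GMNC, MCIDAS, MYB, RFX2, RFX3, DEUP1 and FOXN4, and to the library with thyroid RNA, WT day 80 replicate 2, for FOXJ1, CCNO and TP73. The epithelial list moved with these changes. Of its 24 members 3 rose and 23 had a positive fold change at day 100, with a median of 0.67. The fibroblast and matrix list summed to 37546 to 39455 CPM in CF and 4831 to 6981 CPM in WT at day 100, and at day 80 to 38638 to 42162 CPM in CF and 25569 to 39728 CPM in WT. Its part in these changes was not tested. With the epithelial score of each library as a covariate none of the 10 regulators passed, and without the 4 libraries that held other tissue none passed. None passed either with the libraries of a shared identifier summed. RFX3 was lost without either day 100 library of CF or of WT, CF day 80 replicate 1 or WT day 80 replicate 2. GMNC stayed called in 7 of 20 fits, those without WT day 80 replicate 1, WT day 120 replicate 2, either WT day 147 library, CF day 80 replicate 2 or either CF day 120 library. MYB stayed called in 8 of 20, those without either WT day 65 library, WT day 120 replicate 2, either WT day 147 library, CF day 80 replicate 2 or either CF day 120 library.

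After day 100 none of the 10 passed between neighbouring ages in edgeR or DESeq2, with 0.0995% of all genes called for day 120 against day 100 and 0.134% for birth against day 120. At an unadjusted p under 0.05 there were 0 for the first (7.92% of all genes) and 1 for the second (6.41%), GMNC.

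FOXJ1, the factor that switches on the genes of the motile cilium, did not pass between neighbouring ages or between birth and day 65 in the main edgeR test. Its levels in CF were 248 and 183 CPM at day 65, 140 and 414 at day 80, 520 and 384 at day 100, 424 and 360 at day 120 and 332 and 360 at day 147. In WT they were 121 and 173, 670 and 112, 734 and 639, 352 and 786, and 319 and 842 CPM. The 2 WT libraries of a group differed more than 2-fold at days 80, 120 and 147. The high library of each pair was the one with the lower slope of log2 CPM on gene length, -0.18, -0.17 and -0.24, and FOXJ1 has a summed exon length of 2055 bases. The high library also had the higher epithelial score, the mean log2 CPM of the epithelial list. It was 7.13 against 6.52 at day 80, 7.45 against 7.02 at day 120 and 7.60 against 6.69 at day 147. EPCAM alone ran the other way at day 80, at 149 CPM in the high library and 304 CPM in the low. The part of the slope or of the epithelial score in the level was not tested at single libraries. Over the genotypes, birth minus day 65 was 1.33 ± 0.51 on the log2 scale (edgeR adjusted p = 0.0903), and FOXJ1 passed without WT day 80 replicate 1, WT day 80 replicate 2 or WT day 147 replicate 1 (lowest adjusted p 0.0285).

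By birth, 3 of the 10 regulators had changed against day 65 over the genotypes, with TP73 and RFX2 higher and GMNC lower. Of all tested genes 18.6% were called, 8.77% higher and 9.86% lower. At an unadjusted p under 0.05 there were 4 of the 10, against 33% of all genes. For a set of 10, both counts are not far from the shares of all genes. TP73, a p53 relative that mouse airways need for multiciliated cells, stood at 52.1 and 46.2 CPM in CF and 42.2 and 64.4 CPM in WT at birth. At day 65 it stood at 24.2 and 20.1 CPM in CF and at 10.6 and 19.8 CPM in WT, so that all 4 libraries at birth lay above all 4 at day 65. Its log2 fold change was 1.48 ± 0.47 (edgeR adjusted p = 0.0435). RFX2, a partner of FOXJ1 on ciliary promoters in frog, stood at 92.6 and 81.4 CPM in CF and 83.1 and 99.8 CPM in WT at birth, all above the day 65 range of 35.5 to 58.1 CPM. The share of all genes with such a gap between birth and day 65 was not counted, so the gaps of TP73 and RFX2 stand without a background. The levels of RFX2 were also tested. For RFX2 the log2 fold change was 0.91 ± 0.29 (edgeR adjusted p = 0.0475). Both calls are close to the threshold. That of TP73 held in 5 of the 20 fits that leave out 1 library, without any of the 4 day 80 libraries or WT day 147 replicate 1, and that of RFX2 in 4, without any of the 4 day 80 libraries. With the libraries of a shared identifier summed, none of the 10 passed, and with the epithelial score as a covariate only GMNC did.

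Most genes that build the cilium itself also rose from day 65 to birth. Of 49 tested genes of the motile cilium list, 34 rose between day 65 and birth and none fell, against 8.77% of all genes higher and 9.86% lower. The median log2 fold change was 1.47. Between day 80 and day 100, 17 rose, against 3.22% of all genes, with a median of 1.07. All 49 had a positive fold change in both comparisons. The medians of all tested genes were -0.03 and -0.11. The counts of 34 and 17 are from the main edgeR test. Most epithelial markers also had a positive fold change between day 80 and day 100. The part of epithelial content, or of the libraries that held other tissue, in these counts is not given here. Within the genotypes, birth against day 65 called 0 of the 49 in CF (5.49% of all genes) and 8 in WT (8.23%) by edgeR. Of the 5 partners and inhibitor of multicilin on the list (E2F4, E2F5, TFDP1, TFDP2 and GMNN, which encodes geminin), none passed in any comparison across ages or genotypes by edgeR or DESeq2, with 1 at an unadjusted p under 0.05 for CF against WT at day 100 and 1 for the difference of the courses from day 65 to birth.

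The centriole amplification list split at birth. Of its 17 members 5 fell and 2 rose against day 65, with 9.86% of all genes lower and 8.77% higher, and the median log2 fold change was -0.63. SPAG5, a protein of the mitotic spindle, fell by 2.22 on the log2 scale (SE 0.18, edgeR adjusted p = 2.07e-05). SASS6, of the centriole cartwheel, fell by 0.77 (SE 0.15, adjusted p = 0.00406). PLK4, the kinase that starts centriole duplication, fell by 1.15 (SE 0.23, adjusted p = 0.00419), and STIL, its partner, fell by 1.29 (SE 0.30, adjusted p = 0.00989), a call lost without the 4 libraries that held other tissue or with shared identifiers summed. These 4 genes also serve centriole duplication or the spindle in dividing cells, and 20 of 22 genes of the proliferation list fell in the same comparison. The falls are means over the genotypes. The change from day 65 to birth in CF minus that in WT was -2.13 ± 0.46 for PLK4 and -1.76 ± 0.59 for STIL. It was -0.69 ± 0.35 for SPAG5 and -0.03 ± 0.30 for SASS6. None of these differences passed (edgeR adjusted p = 0.4, 0.904, 0.914 and 0.997). CCDC78, a deuterosome protein in frog, and CETN2, a centrin, were the 2 that rose. Between day 80 and day 100 SPAG5 fell by 0.93 (SE 0.18, adjusted p = 0.0102), a call lost without WT day 100 replicate 2 or CF day 100 replicate 1 and in 3 of 9 other alternatives. CCP110, a cap protein of centrioles, rose by 0.98 ± 0.28 (adjusted p = 0.05, just under the threshold before rounding). It kept its call in 5 of the 20 fits that leave out 1 library, those without CF day 80 replicate 2, either CF day 120 library or either WT day 147 library, and in 2 of 9 other alternatives.

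Some other regulators of airway and ciliated cells rose between day 80 and day 100. Of 13 on the list 5 passed, all higher at day 100, against 3.22% of all genes, in the comparison in which 23 of 24 epithelial markers had a positive fold change. TP63, the factor of airway basal cells, rose by 1.97 ± 0.35 on the log2 scale (edgeR adjusted p = 0.00823), a call kept in each of the 20 fits that leave out 1 library and in 7 of 9 other alternatives. It stood at 114 and 132 CPM in CF and 123 and 130 CPM in WT at day 100, and at day 80 at 22.4 and 55.4 CPM in CF and 35.8 and 15.9 CPM in WT. STOX1, a winged-helix protein, rose by 1.20 ± 0.25 (adjusted p = 0.0144), a call lost without WT day 100 replicate 2 or CF day 100 replicate 1. NEK10, a kinase that human airway cells need for motile cilia of normal length, rose by 1.67 ± 0.39 (adjusted p = 0.0234) and was the 1 of the 13 that was also higher at birth than at day 65, by 1.71 ± 0.39 (adjusted p = 0.00991). The first of these NEK10 calls was lost without WT day 80 replicate 2, CF day 80 replicate 1 or any of the 4 day 100 libraries, and the second without WT day 65 replicate 1 or CF day 65 replicate 2. Without the 4 libraries that held other tissue, TP63, STOX1 and NEK10 did not pass between day 80 and day 100 (adjusted p = 0.103, 0.133 and 0.206), nor did they with the epithelial score as a covariate (0.0786, 0.141 and 0.17). STOX1 and NEK10 were also lost with the libraries of a shared identifier summed.

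Notch signalling holds progenitors back from the ciliated fate. Between day 80 and day 100, 5 of 22 tested genes of the pathway fell and none rose, with 5.7% of all genes lower and 3.22% higher at day 100. HEYL, a target of Notch, stood at 18.5 and 22.7 CPM in CF and 6.72 and 6.23 CPM in WT at day 100, and at day 80 at 88.0 and 23.7 CPM in CF and 25.7 and 105 CPM in WT. It fell by 2.39 (SE 0.46, edgeR adjusted p = 0.0104) and DLL4, a ligand, by 1.95 (SE 0.40, adjusted p = 0.0131). HEY2, another target, fell by 1.59 (SE 0.36, adjusted p = 0.0193). HES5, a target as well, had 53 counts or fewer in all libraries and 0 in both WT day 100 libraries. The highest HEYL values at day 80 were those of the libraries with muscle and thyroid RNA, and the endothelial list, whose cells also use DLL4 and HEY2, summed to 2891 CPM in WT day 80 replicate 2, against 147 to 802 CPM at day 100. Without WT day 100 replicate 2 or CF day 100 replicate 1, HEYL, DLL4 and HEY2 did not pass. DLL4 was also lost without CF day 80 replicate 1, and HEY2 without WT day 80 replicate 2 or the other 2 day 100 libraries. Without the 4 libraries that held other tissue these 3 genes did not pass (adjusted p = 0.0953 for HEYL, 0.189 for DLL4 and 0.142 for HEY2), nor with the epithelial score as a covariate (0.151, 0.136 and 0.151). HEYL and HEY2 were also lost with the libraries of a shared identifier summed, and HEY2 by library size alone. In WT the fibroblast and matrix list was also lower at day 100 than at day 80, and its part here was not tested.

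At birth, HEY1 was the Notch gene that stood out. It stood at 29.1 and 27.9 CPM in CF and 37.6 and 46.2 CPM in WT, against 8.06 to 10.7 CPM in the 4 day 120 libraries. It rose by 1.86 ± 0.20 over day 120 (edgeR adjusted p = 0.008) and by 1.43 ± 0.19 over day 65 (adjusted p = 0.000319). The first of these calls was lost without WT day 120 replicate 1, CF day 120 replicate 1 or CF day 147 replicate 1, or with shared identifiers summed. Between day 65 and birth NOTCH3 fell by 1.60 (SE 0.31, adjusted p = 0.00338) and NOTCH1 by 0.65 (SE 0.15, adjusted p = 0.00964), and the ligand DLL1 rose by 1.07 ± 0.25 (adjusted p = 0.00994). In all, 2 of 22 rose and 4 fell, against 8.77% of all genes higher and 9.86% lower, so the share that rose was close to that of all genes. NOTCH1 was lost without CF day 147 replicate 2 or with shared identifiers summed, and DLL1 without WT day 65 replicate 1 or by library size alone.

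CF was next compared with WT. Over the mean of the ages none of the 10 regulators passed (edgeR, 0.766% of all genes called), with 2 at an unadjusted p under 0.05 (11.2% of all genes) and none by DESeq2, and 8 of 10 had a negative fold change. The 2 were MCIDAS, at -0.80 ± 0.28 (adjusted p = 0.283), and DEUP1, at -0.49 ± 0.21 (adjusted p = 0.418). At day 80 none passed by edgeR (0% of all genes called) or DESeq2, with 1 at an unadjusted p under 0.05 (9.57% of all genes), and both CF libraries lay below both WT libraries for DEUP1 alone, at 5.22 and 18.2 CPM against 19.9 and 38.6 CPM, with 10.8% of all genes. Its WT value of 38.6 CPM was in the library with thyroid RNA and its CF value of 5.22 CPM in the one with muscle RNA. The log2 fold change of DEUP1 was -1.32 (adjusted p = 0.384), and it passed without CF day 80 replicate 2 (adjusted p = 0.0219).

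At day 100 none of the 10 passed by edgeR (1.46% of all genes called) or DESeq2, with 0 at an unadjusted p under 0.05 (12.3% of all genes). Both CF libraries lay below both WT libraries for FOXJ1, MCIDAS, CCNO and DEUP1, as for 30% of all genes, and above them for RFX2, as for 40.5%. The epithelial list summed to 4608 to 4779 CPM in CF and 8513 to 8572 CPM in WT at this age. The fibroblast and matrix list ran the other way, at 37546 to 39455 CPM in CF and 4831 to 6981 CPM in WT, as did the endothelial list, at 510 to 802 CPM in CF and 147 to 191 CPM in WT, and their part in these gaps was not tested. At day 120 both CF libraries lay below both WT libraries for MCIDAS and FOXN4, with 7.61% of all genes, and none of the 10 passed by edgeR (0% of all genes called) or DESeq2, with 0 at an unadjusted p under 0.05 (1.39% of all genes). MCIDAS stood at 18.9 and 18.8 CPM in CF at day 120, against 21.8 and 37.9 CPM in WT.

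At birth none of the 10 passed the main test, and the fold changes farthest from 0 were those of MCIDAS, CCNO and FOXN4. MCIDAS stood at 6.72 and 6.41 CPM in CF, against 51.5 and 43.6 CPM in WT. The CF values were the lowest of the 20 libraries for this gene and the WT values were among the highest. The log2 fold change was -2.86 ± 0.68, with an unadjusted p of 0.00107 and an adjusted p of 0.178 in the edgeR quasi-likelihood test, in which 0.0945% of all genes were called. At an unadjusted p under 0.05 there were 3 of the 10, MCIDAS, CCNO and FOXN4, against 7.92% of all genes. DESeq2, which called 420 genes in all at birth, called MCIDAS at an adjusted p of 0.00181, the only 1 of the 10. It also passed in edgeR without the 4 libraries that held other tissue (adjusted p = 0.0314) and with the epithelial score as a covariate (adjusted p = 0.0303). The 2 CF libraries carry the same identifier, and with such pairs summed the adjusted p was 1. The log2 fold change lay between -3.15 and -2.73 in all 29 alternatives. None of the 4 libraries that held other tissue is from birth. Leaving them out acted on this test through what all libraries share, such as the estimate of the spread.

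FOXN4, a factor that in frog acts beside multicilin on centriole and cilium genes, stood at 9.58 and 12.2 CPM in CF, against 48.9 and 39.6 CPM in WT. Its log2 fold change was -2.02 ± 0.69 (edgeR unadjusted p = 0.012, adjusted p = 0.413). CCNO, whose loss in human leaves airway cells with few cilia, stood at 18.8 and 19.5 CPM in CF, against 49.1 and 116 CPM in WT, with a log2 fold change of -2.11 ± 0.90 (unadjusted p = 0.0369, adjusted p = 0.58). The CCNO value was -1.34 without WT day 147 replicate 2 and -2.59 without WT day 147 replicate 1. DEUP1 stood at 15.8 and 12.8 CPM in CF, against 24.6 and 28.2 CPM in WT, with -0.89 ± 0.48 (adjusted p = 0.727). For these 3 genes and MCIDAS, 4 of the 10, both CF libraries lay below both WT libraries, as did 15.6% of all tested genes.

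The other 6 showed no such gap. FOXJ1 stood at 332 and 360 CPM in CF, inside the WT values of 319 and 842 CPM, with a log2 fold change of -0.75 and a 95% interval from -2.30 to 0.80. The sign of this value turned without WT day 147 replicate 2 (0.14). GMNC differed by 0.47 (95% interval -0.97 to 1.90), TP73 by -0.12 (-1.51 to 1.28), MYB by -0.04 (-1.12 to 1.03), RFX2 by -0.07 (-0.96 to 0.82) and RFX3 by 0.09 (-0.73 to 0.92) on the log2 scale. These intervals are wide, so equal levels are not shown. The motile cilium list also overlapped at birth, with sums of 5741 and 6515 CPM in CF, against 5409 and 9713 CPM in WT, and 0 of its 49 genes passed in edgeR or DESeq2, or stood at an unadjusted p under 0.05, with a median log2 fold change of -0.33. The epithelial list stood at 5747 and 5658 CPM in CF, against 3515 and 8136 CPM in WT.

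**Figure D3:**
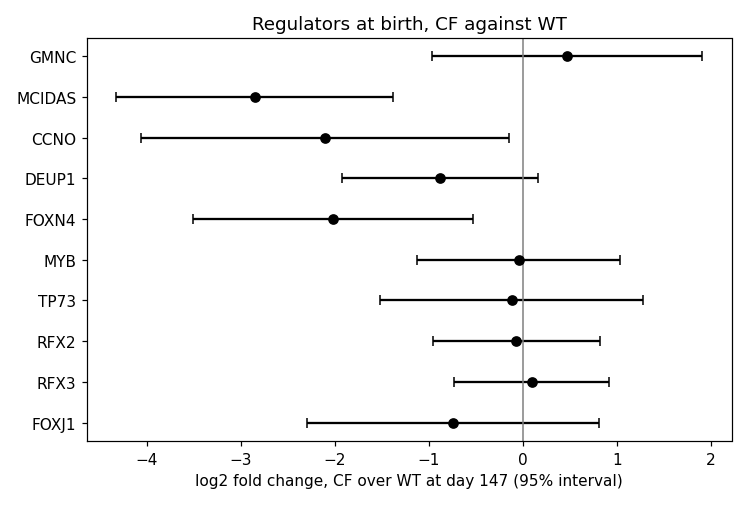
Log2 fold change of CF over WT at day 147 for each regulator (rows), with its 95% interval from the edgeR quasi-likelihood fit; the vertical line is no difference. MCIDAS, CCNO and FOXN4 lie between -2.86 and -2.02 with intervals below 0 before adjustment for multiple testing, and the intervals of the other 7 include 0.

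MCIDAS and CCNO are neighbours on sheep chromosome 16, as the count tables place them (build not given in the sources used here). CCNO lies at 23966241 to 23968737 and MCIDAS at 23972233 to 23981128, 3496 bases apart on the plus strand, and CDC20B lies further along at 24000087 to 24069261 on the same strand. No exon of another gene in the tables overlaps an exon of any of the 10 regulators. CDC20B, which in mouse and frog is needed to free new centrioles from deuterosomes, was the gene most like MCIDAS over the 20 libraries (Pearson r of log2 CPM 0.96). At birth it stood at 11.0 and 11.1 CPM in CF, against 133 and 98.8 CPM in WT, with a log2 fold change of -3.39 ± 0.61 and an edgeR adjusted p of 0.0547. It passed in 4 of the 20 fits that leave out 1 library, those without a day 80 library, and in 4 of 9 other alternatives. No day 80 library is in the birth groups. Fits without one act on the birth test through what all libraries share, such as the estimate of the spread. Of the 17 genes on the centriole amplification list none passed in edgeR at birth (0.0945% of all genes called), whereas DESeq2 called 4 (420 genes called in all). The unadjusted edgeR p was under 0.05 for 5 of the 17, against 7.92% of all genes, and the median log2 fold change was -0.17. PLK4, on this list, stood at 12.4 and 13.2 CPM in CF, against 66.3 and 31.5 CPM in WT, with -1.93 ± 0.33 and an adjusted p of 0.0547. It passed without WT day 80 replicate 1, WT day 80 replicate 2 or WT day 147 replicate 2. The proliferation list summed to 354 and 368 CPM in CF at birth, against 497 and 530 CPM in WT, and its part in the PLK4 difference was not tested. Of the 22 Notch genes none passed in edgeR at birth, with 3 at an unadjusted p under 0.05 (7.92% of all genes) and 1 called by DESeq2. JAG2, a Notch ligand chosen here after its values were seen, stood at 4.59 and 4.35 CPM in CF, against 1.38 and 0.751 CPM in WT (log2 fold change 2.07, adjusted p = 0.224).

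The course from day 65 to birth was then compared between the genotypes. In CF, MCIDAS was lower at birth by a log2 fold change of -2.23 ± 0.66 (edgeR adjusted p = 0.0742), at 6.72 and 6.41 CPM, against 36.4 and 25.1 CPM at day 65. In WT it differed by 1.26 ± 0.64 (adjusted p = 0.222), at 51.5 and 43.6 CPM, against 18.4 and 21.4 CPM at day 65. The CF course (birth against day 65 in CF) minus the WT course was -3.49 ± 0.92 for MCIDAS (unadjusted p = 0.00234, adjusted p = 0.806), -2.77 ± 1.25 for CCNO and -2.64 ± 0.96 for FOXN4 (adjusted p = 0.914 for both). None of the 10 passed for this difference in edgeR, 0.00498% of all genes were called, and 3 were at an unadjusted p under 0.05 (4.79% of all genes). DESeq2 called 1, MCIDAS, at an adjusted p of 0.033, with 115 genes called in all. For the CF course none of the 10 passed in edgeR (5.49% of all genes called) and 1 in DESeq2, with 3 at an unadjusted p under 0.05 (18% of all genes). For the WT course none passed in edgeR (8.23% of all genes called) and 3 in DESeq2, which called 4110 genes in all. In edgeR 5 were at an unadjusted p under 0.05 (27.7% of all genes). MCIDAS passed for the CF course without any 1 of the 4 day 80 libraries (lowest adjusted p 0.0212), and FOXJ1 and TP73 for the WT course without either WT day 80 library. An F test that the genotype difference varies among the ages was passed by none of the 10 in edgeR (0.0697% of all genes called) or DESeq2, with 1 at an unadjusted p under 0.05 (7.28% of all genes).

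Each regulator was also set against FOXJ1 in the same library. MCIDAS per 100 CPM of FOXJ1 was 1.78 and 2.02 in CF at birth, below all 18 other libraries, which ranged from 4.47 to 16.1. At day 65 it was 14.7 and 13.8 in CF and 15.2 and 12.4 in WT. FOXN4 per 100 CPM of FOXJ1 was 2.89 and 3.40 in CF at birth, against 4.44 at the lowest elsewhere. CCNO per 100 CPM of FOXJ1 was 5.41 and 5.65 in CF at birth, against 7.44 to 19.7 in the other 18 libraries. The 2 CF libraries at birth carry the same identifier, and the share of all genes lowest there against FOXJ1 was not counted. TP73 per 100 CPM of FOXJ1 was 15.7 and 12.8 in CF at birth, against 6.79 to 13.3 elsewhere, and so lay at the upper end. The 2 WT libraries at birth were far apart, at 16.1 and 5.18 for MCIDAS, with FOXJ1 at 319 and 842 CPM in them. DEUP1 had its highest value, 34.4, in the library with thyroid RNA.

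**Figure D4:**
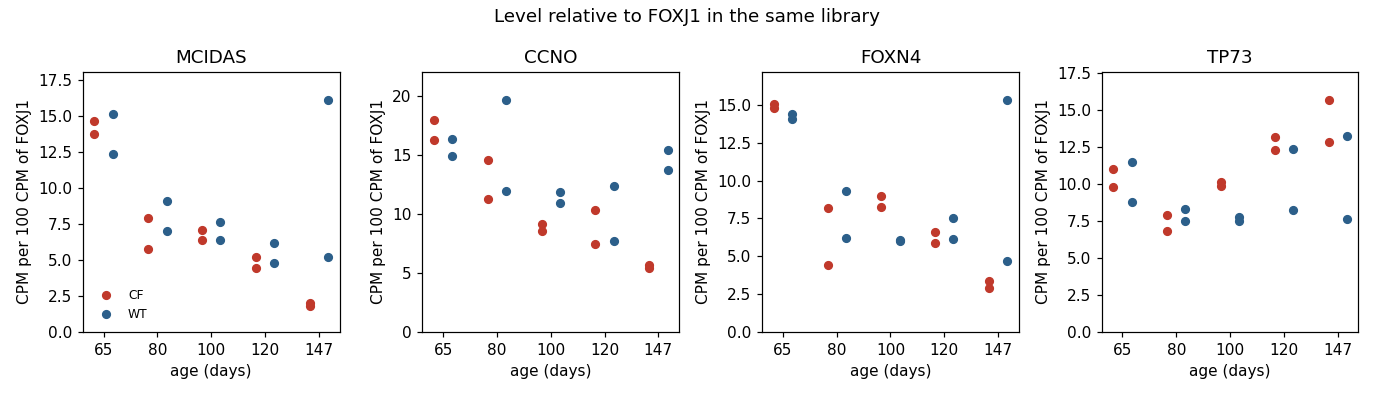
Level of MCIDAS, CCNO, FOXN4 and TP73 in CPM per 100 CPM of FOXJ1 in the same library (vertical axes, from 0) against age in days, with CF in red on the left and WT in blue on the right and 1 point per library. The 2 CF libraries at birth, which carry the same identifier, are the lowest of the 20 for MCIDAS (1.78 and 2.02), FOXN4 (2.89 and 3.40) and CCNO (5.41 and 5.65).

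Over the 20 libraries the regulators were compared by the likeness of their levels, given here as Pearson r of log2 CPM. Such r values also carry shared tissue content, depth and age. They may also carry the slope of log2 CPM on gene length. At CF day 120 this slope was -0.14 in replicate 1 and 0.11 in replicate 2. There GMNC, MYB and RFX3 were lower in replicate 1, and FOXJ1 and CCNO, both shorter, were higher. GMNC, MYB and RFX3 were again lower in the library with the lower slope at WT day 147. RFX2 and DEUP1, longer than MYB, were higher there. The part of the slope in r was not tested. MCIDAS and FOXN4 had r = 0.95, and the 3 genes most like each were drawn from the same set, CDC20B, CCNA1 and the other regulator. CCNA1, a cyclin best known from male germ cells, stood at 17.3 and 18.0 CPM in CF at birth, against 78.5 and 55.6 CPM in WT. TP73 and RFX2 had r = 0.96, and FOXJ1 and TP73 0.92. Genes of the cilium stood nearest to all 3. They were ZMYND10, RSPH1 and CFAP45 for FOXJ1 (r = 0.99 each), SPAG8, DNAI2 and ZMYND12 for TP73 (r = 0.98 each) and CFAP65, LRRC71 and DZANK1 for RFX2 (r from 0.98 to 0.99). MYB and RFX3 had r = 0.89, and RFX3 also had 0.86 with RFX2 and 0.74 with TP73. Nearest to MYB were OSBPL3, SYK and ARHGEF28 (r from 0.91 to 0.94), and nearest to RFX3 were PRRG4, PLCH1 and BBOF1 (0.96 to 0.98).

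CCNO had r = 0.85 to MCIDAS and 0.84 to both FOXJ1 and FOXN4, and its nearest genes were CEP83, ANXA1 and SCTR (0.91 to 0.92). DEUP1 had r of at most 0.57 with any other regulator, and was nearest to LRRC6, which encodes a dynein assembly factor, and to the epithelial genes BSPRY and AP1M2 (0.87 to 0.91). GMNC had r = -0.13 with FOXJ1, -0.05 with TP73 and 0.27 with MCIDAS, its highest values among the regulators were 0.57 with MYB and 0.41 with RFX3, and it was nearest to RHBDL3, HPS5 and TIAM1 (0.92 to 0.93).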

How the data were processed

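Counts per gene were deposited as raw whole numbers, not normalized, with WT and CF libraries in separate tables that list the same genes, per the file headers. STAR 2.6 made the alignments and featureCounts 1.6.3 (Subread) the counts, per the submitters' processing notes. Neither the genome build nor the annotation or strand setting is stated there. Titles gave each library its group. The 2 libraries of a group always differed by more than counting noise (chi-square per gene from 37.8 to 1685). Sequences of the regulators were not used here.

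The members and lists were chosen with earlier results of these data known. Tests used edgeR 4.0.16 in R 4.3.3 (limma 3.58.1). The filter filterByExpr left 20097 genes, which were scaled by TMM and fitted with glmQLFit (robust) and 1 coefficient per group, so that all 20 libraries share the estimate of the spread. P-values were adjusted by Benjamini-Hochberg over these genes and called under 0.05. Each SE comes from the fold change and its quasi-likelihood F. The step was tested on simulated data. Besides the 10 members, the text names up to 4 genes per pathway list and comparison over the mean of ages or genotypes by smallest adjusted p, and the 3 genes most like each member (log2 CPM, prior count 2). One gene that this rule names is not reported here. CCDC78, CETN2 and JAG2 are outside this rule and were named after their values were seen. Alternatives were RLE size factors, library size alone, no filter, DESeq2 1.42.0, a replicate block, libraries of a shared identifier summed, 4 libraries that held other tissue left out, an epithelial score or a length slope as covariate, and each library left out in turn, 29 in all.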

Additional observations from a re-analysis of the deposited data

How the results depend on the processing

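Each test was repeated under 29 alternatives, 20 of them leaving out 1 library. The 0 calls among the 10 regulators for CF against WT over the mean of ages, at day 65, at day 100 and at day 120 were the same in all of them. At birth the count was 1 by DESeq2, 1 without the 4 libraries that held other tissue and 1 with the epithelial score as a covariate. For day 100 against day 80 (3 in the main analysis) the count was 1 by library size alone, 5 with the slope on gene length as covariate, and 0 with libraries of a shared identifier summed, without the 4 libraries or with the epithelial score. For birth against day 65 (3) it was 1 by library size alone, with the epithelial score, with the length slope and with the replicate block, and 0 with shared identifiers summed. For any change over ages (1) it was 5 by DESeq2, 2 without the 4 libraries, 3 with the length slope and 0 with shared identifiers summed. The CF course, birth against day 65 in CF (0), gave 1 by library size alone, DESeq2, the epithelial score or the length slope and 2 without the 4 libraries. The WT course, the same in WT (0), gave 3 by DESeq2 and 2 without the 4 libraries. Day 80 against day 65 (0) and the difference of the courses (0) gave 1 by DESeq2.

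Leaving out 1 library gave 0 to 6 calls for day 100 against day 80, 0 to 4 for birth against day 65, 0 to 5 for any change, 0 to 3 for the WT course and 0 to 1 for the CF course, for day 80 against day 65 and for CF against WT at day 80. Onset ran from day 65 to day 80 for CCNO, DEUP1 and RFX2 and from day 80 to day 100 for FOXJ1 and TP73. TP73 had its onset at day 80 without the 4 libraries and per epithelial RNA, and at day 65 at the 25% limit, as did FOXJ1. CCNO had its onset at day 80 without the 4 libraries.

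Small differences at birth changed sign, with the cause not tested. They were MYB (0.035), TP73 (0.034) and RFX2 (0.056) by library size alone, TP73 (0.15) and RFX2 (0.034) with the length slope, and RFX3 (-0.017) with the epithelial score, which also turned FOXJ1 between days 80 and 100 (-0.19). Leaving out 1 library gave -1.28 to 0.14 for FOXJ1, -0.15 to 1.64 for GMNC, -0.29 to 0.28 for MYB, -0.39 to 0.24 for TP73, -0.20 to 0.086 for RFX2 and -0.15 to 0.30 for RFX3. Library size alone moved the median of all genes by -0.33 to 0.20 on the log2 scale.

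The replicate numbers did not pair the libraries. Of 45 pairs of groups, 12 had a correlation of deviations over 0.1 and 14 under -0.1, from -0.59 to 0.73. The replicate block left 1 of 3 calls for birth against day 65.

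Counts over all genes also depended on the alternative. They ran from 141 to 4950 for day 100 against day 80 (1793 in the main analysis), from 1858 to 6069 for birth against day 65 (3745), from 1553 to 7498 for any change (3601), from 1 to 420 for CF against WT at birth (19), from 2 to 829 over the mean of ages (154), from 0 to 1210 at day 100 (294), from 0 to 150 at day 65 (2), from 0 to 693 at day 80 (0) and from 0 to 17 at day 120 (0). For day 80 against day 65 they ran from 0 to 1777 (0), for day 120 against day 100 from 0 to 507 (20), for birth against day 120 from 0 to 375 (27), for the CF course from 134 to 3684 (1104), for the WT course from 408 to 4110 (1654), for their difference from 0 to 115 (1) and for the variation of the genotype difference among ages from 0 to 821 (14).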
